A study of Mus musculus with 6 samples.

Results

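Cytochrome P450 genes of families 1 to 4 were examined in whole kidneys of 2-month-old C57BL/6 mice, 3 samples from an adenine-enriched diet and 3 from a standard diet. Excess adenine forms a poorly soluble product and is widely used to injure the rodent kidney. Members were taken by symbol (Cyp, a digit from 1 to 4, a letter and a number, with or without a final letter), which selects 80 of the 40993 genes in the deposited table. Of these, 31 averaged 0.5 FPKM or more and were tested. FPKM corrects fragment counts for library size and for the length of the transcript, so levels can be compared between genes. The libraries are called adenine 1 to 3 and standard 1 to 3. The labels give neither the sex of the mice nor how long they were fed. No label states that each sample is a separate animal, so the p-values measure only how these samples vary.

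P450 enzymes are haem proteins of the endoplasmic reticulum that insert oxygen into their substrates with electrons passed on by P450 reductase and cytochrome b5. Enzymes of families 1 to 3 oxidise drugs, pollutants and steroids, and those of the Cyp2c and Cyp2j subfamilies also make epoxides of arachidonic acid. Family 4 enzymes oxidise the far end of fatty acids and leukotrienes, and several Cyp4a genes are known targets of the fatty acid receptor PPAR-alpha. In the kidney much of this activity lies in the proximal tubule, and in mice several of the genes are under androgen control.

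Depth was inferred from the step size of low FPKM values and is approximate: 17.5 to 23.5 M fragments in the adenine libraries and 17.3 to 20.4 M in the standard libraries. At these depths 3 fragments of a 2 kb transcript correspond to at most 0.0966 FPKM, and values near or below that rest on very few fragments. The male-specific gene Ddx3y lay between 23.2 and 30.1 FPKM in every library, while Xist, which marks female cells, did not exceed 0.0529 FPKM. On the log2(FPKM + 1) scale the median of all 15431 tested genes lay 0.25 higher in the adenine group. Median-of-ratios rescaling, which divides each library by its median ratio to a common reference, takes that shift out, and the rescaled log2 difference is given beside the deposited one.

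On the adenine-enriched diet 6 of the 31 tested P450 genes rose and 4 fell (limma on log2(FPKM + 1), Benjamini-Hochberg adjusted p under 0.05 over all genes). Cyp1b1, Cyp2s1, Cyp2d22, Cyp4f16, Cyp4f18 and Cyp4v3 rose, and Cyp2d12, Cyp2j5, Cyp4a12a and Cyp4f13 fell. None of the 6 genes that rose averaged 25 FPKM over the 6 libraries, whereas 11 of the 12 members above that level had a lower mean in the adenine group (48.3% of all 4034 genes above it). Of these 12, Cyp2j5 and Cyp4a12a were called, and the level was chosen after the values were seen. The risen Cyp1b1, with a mean of 23.6 FPKM, lay just below that level. The share of members that changed, 32.3%, was near the 36.5% of all tested genes. By direction, 19.4% of members rose, against 29.7% of all genes, and 12.9% fell, against 6.84% of all genes. The median member difference was -0.19 log2 units, against 0.25 for all genes. Rescaling gave 5 members that rose and 7 that fell (all genes: 16.8% rose and 15.2% fell, 32% in all), with a median of -0.40, and 9 members were called in both analyses with the same sign. In whole tissue, fewer cells of a type and less RNA per cell cannot be told apart.

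The 3 adenine and 3 standard values did not overlap for 14 members (45.2%, against 56.1% of all genes). All adenine values lay above all standard values in 6 members and below them in 8. Across all genes these shares were 44.4% and 11.8%. Each of the 10 called members was among the 14. The other 4, namely Cyp2j11, Cyp4a10, Cyp4a31 and Cyp4f14, were lower in every adenine library without passing the test.

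**Figure D1:**
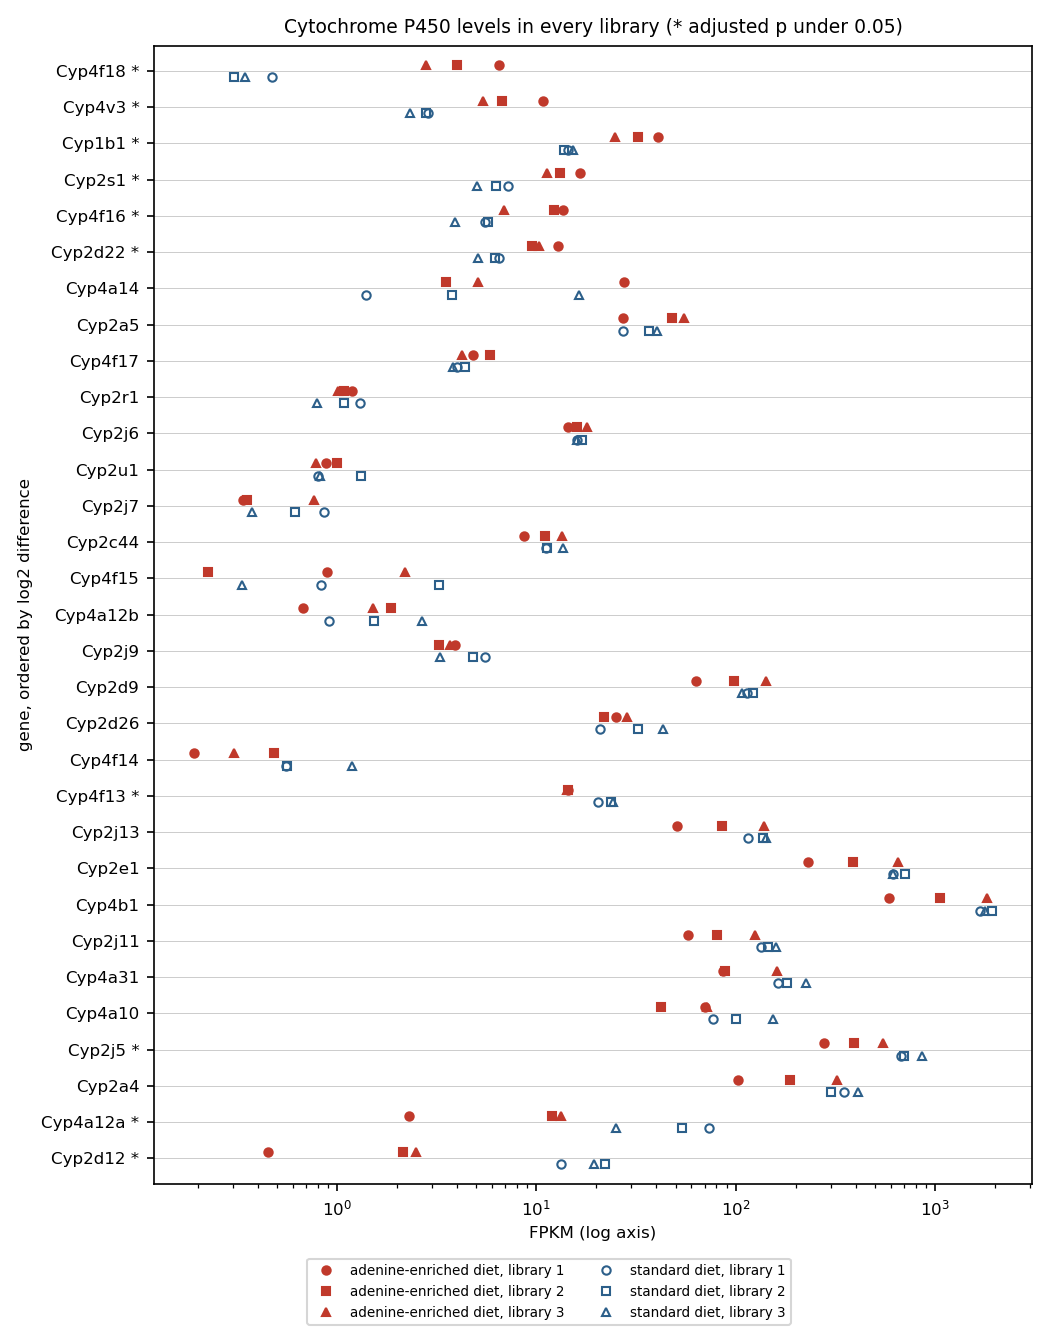
FPKM (log axis) of the 31 tested P450 genes in each library, with filled red symbols for adenine-enriched and open blue symbols for standard diet libraries, and an asterisk for an adjusted p under 0.05. Genes are ordered by their log2 difference, and Cyp4f18 at the top and Cyp2d12 and Cyp4a12a at the bottom show the widest gaps between the diets.

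**Figure D2:**
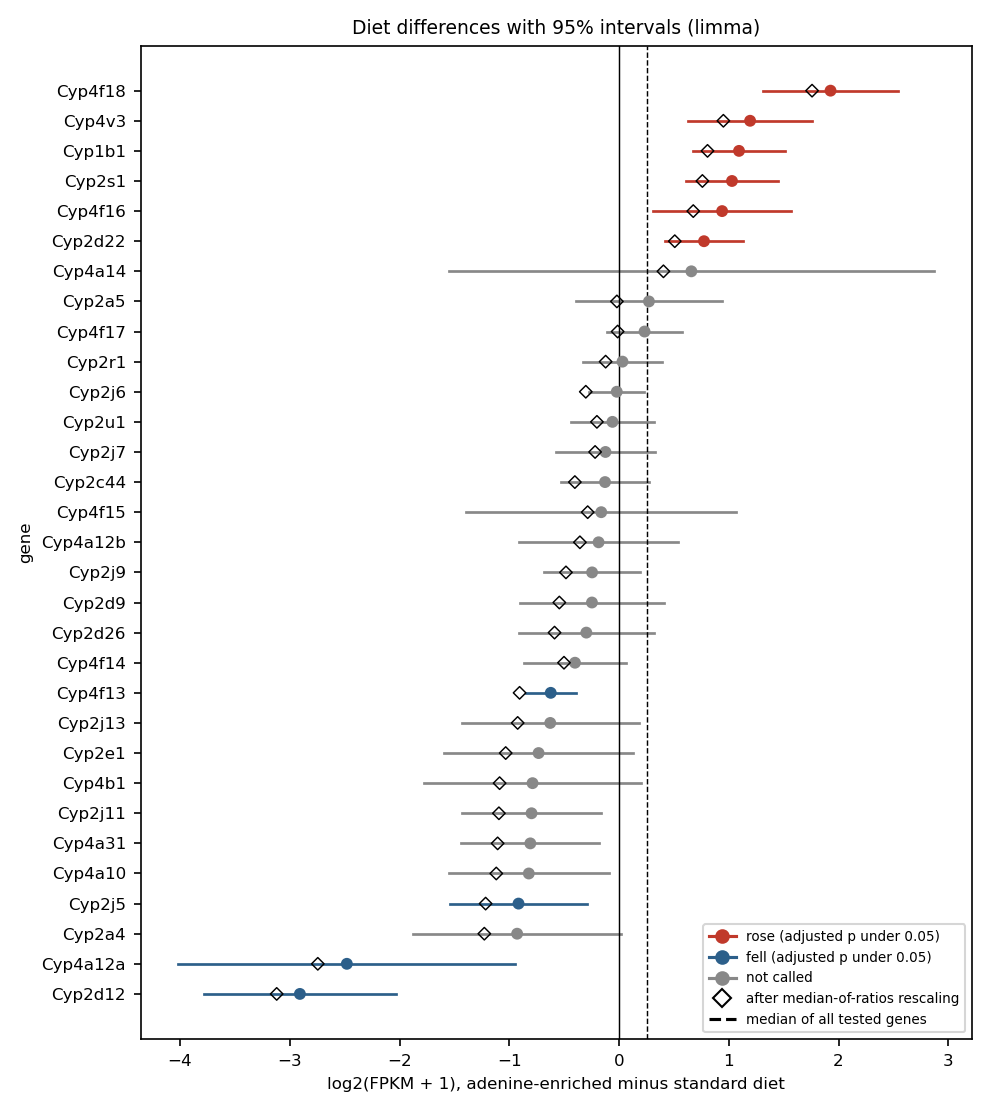
Difference in log2(FPKM + 1), adenine-enriched minus standard diet, with 95% intervals from limma for the 31 tested genes, and open diamonds for the difference after rescaling. The dashed line at 0.25 is the median of all tested genes, and every diamond lies to the left of its point.

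The number of fallen members depended most on adenine 3. Without that library 16 members were called, 6 that rose and 10 that fell. The added ones were Cyp2a4, Cyp2e1, Cyp2j11, Cyp2j13, Cyp4a31 and Cyp4b1, all lower in the adenine group. Leaving out another library gave 3 and 2 fallen members without adenine 1 and 2, and 2, 2 and 3 without standard 1, 2 and 3. The counts of called and of fallen genes among all 15431 tested moved the same way. Without adenine 3, 7078 genes were called, of which 5480 rose and 1598 fell. With every library 5637 were called, of which 4581 rose and 1056 fell. Without another library 220 to 609 fell. With the replicate number as a block, 6 members fell, as Cyp2j11 and Cyp4a31 were added (limma adjusted p = 0.0284 and 0.0159). Over all genes 4825 rose and 1132 fell with the block, against 4581 and 1056 without it. The calls of 6 genes, Cyp1b1, Cyp2s1, Cyp4f18, Cyp4v3, Cyp2d12 and Cyp4f13, held in every alternative in which they could be tested.

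Among the P450 genes of xenobiotic metabolism, Cyp1b1 and Cyp2s1 were about 2.2-fold higher on the adenine-enriched diet and Cyp2d22 was 1.84-fold higher. Cyp1b1, which oxidises polycyclic hydrocarbons and oestradiol and is induced through the aryl hydrocarbon receptor, is on chromosome 17 (79706953 to 79715041, minus strand, GRCm38). It had 40.8, 32.3 and 24.8 FPKM in adenine 1 to 3, against 14.4, 13.8 and 15.2 FPKM in standard 1 to 3. The standard libraries were nearly equal, and the lowest adenine library, adenine 3, lay above all of them. The difference was 1.09 ± 0.18 log2 units (SE; limma adjusted p = 0.00798), and 0.81 after rescaling (limma adjusted p = 0.0131). Over 16 alternatives the limma adjusted p was 0.00287 to 0.0394.

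Cyp2s1, a P450 of epithelia outside the liver that dioxin also induces, is on chromosome 7 (25802475 to 25816913, minus strand). It had 16.6, 13.1 and 11.4 FPKM in adenine 1 to 3, against 7.17, 6.27 and 5.06 FPKM in standard 1 to 3. Every adenine library was above every standard library, with adenine 1 the highest. The difference was 1.03 ± 0.18 log2 units (SE; limma adjusted p = 0.00911), and 0.76 after rescaling, and the limma adjusted p was at most 0.0414 over 16 alternatives.

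Cyp2d22 belongs to the subfamily of the human drug-metabolising enzyme CYP2D6 and lies on chromosome 15 (82370528 to 82380260, minus strand). It had 12.9, 9.52 and 10.3 FPKM in adenine 1 to 3, against 6.52, 6.20 and 5.09 FPKM in standard 1 to 3. The groups did not overlap. The log2 difference was 0.77 ± 0.15 (SE; limma adjusted p = 0.0123), and 0.51 after rescaling; with quantile normalization it was 0.36 and not called (limma adjusted p = 0.0522).

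The best known dioxin-induced members were hardly detected. Cyp1a1 had 0.168, 0.211 and 0.430 FPKM in adenine 1 to 3, against 0.189, 0.285 and 0.660 FPKM in standard 1 to 3, too low to be tested, and Cyp1a2 was listed at 0 in all 6 libraries. Values of Cyp1a1 overlapped between the diets.

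The core of the response element that the aryl hydrocarbon receptor binds, GCGTG on either strand, was searched in RefSeq promoter windows (GRCm38.p6, 250 bases before to 50 after the start), along with the nuclear receptor half-site AGGTCA. Windows were found for 20 of the 31 tested members. GCGTG was in a window of 7 of these 20, and of 32.4% of the 32851 windows of all genes. It was present in 3 of the 5 risen members with a window (Cyp1b1, Cyp4f16 and Cyp4v3, but neither Cyp2s1 nor Cyp4f18) and in neither of the fallen members with one (Cyp2j5 and Cyp4f13). AGGTCA was in a window of 3 of the 20, Cyp2a4, Cyp2a5 and Cyp2j5, and of 16.3% of all windows. As a direct repeat spaced by 1 base it was in none of 72 member windows, and in 0.0396% of all windows. Member counts are of genes with a match in any of their windows, whereas the shares of all genes are of single windows. The searches were made separately and a match is only a match of letters. The windows of 2 risen members and of the abundant fallen member are shown, each 5′ to 3′ on the gene's own strand, with the match in capitals: GCGTG reads CACGC in Cyp1b1 (chr17:79715012-79715311, minus strand) and GCGTG in Cyp4v3 (chr8:45333114-45333413, minus strand), and Cyp2j5 (chr4:96664070-96664369, minus strand) holds AGGTCA.
Cyp1b1: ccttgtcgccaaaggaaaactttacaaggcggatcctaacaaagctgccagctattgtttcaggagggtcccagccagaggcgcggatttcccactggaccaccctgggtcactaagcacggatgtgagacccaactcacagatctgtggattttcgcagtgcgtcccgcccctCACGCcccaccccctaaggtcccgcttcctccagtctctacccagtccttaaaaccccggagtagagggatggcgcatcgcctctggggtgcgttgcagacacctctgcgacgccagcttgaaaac
Cyp4v3: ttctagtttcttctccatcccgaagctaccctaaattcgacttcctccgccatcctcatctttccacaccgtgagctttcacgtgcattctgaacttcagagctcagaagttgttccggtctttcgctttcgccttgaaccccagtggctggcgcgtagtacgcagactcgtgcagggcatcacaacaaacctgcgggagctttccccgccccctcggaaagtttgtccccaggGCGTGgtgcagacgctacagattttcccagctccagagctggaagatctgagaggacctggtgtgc
Cyp2j5: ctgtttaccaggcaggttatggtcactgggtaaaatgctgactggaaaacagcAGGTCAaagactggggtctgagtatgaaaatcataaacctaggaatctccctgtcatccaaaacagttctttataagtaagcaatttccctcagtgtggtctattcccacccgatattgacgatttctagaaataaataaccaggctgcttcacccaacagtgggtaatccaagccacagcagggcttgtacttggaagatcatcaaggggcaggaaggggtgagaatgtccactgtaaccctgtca

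Of the family 4 genes outside the Cyp4a and Cyp4b subfamilies, Cyp4f18, Cyp4v3 and Cyp4f16 rose and Cyp4f13 fell. Cyp4f18, which in mouse neutrophils oxidises and so inactivates leukotriene B4, is on chromosome 8 (71988482 to 72009626, minus strand). It had 6.49, 4.01 and 2.78 FPKM in adenine 1 to 3, against 0.473, 0.303 and 0.345 FPKM in standard 1 to 3. Even adenine 3, the lowest of its group, was several times above any standard library. Every standard value lay below 0.5 FPKM, so only the adenine libraries brought the gene into the test. The standard mean of 0.373 FPKM is the denominator of its fold. The means differed 11.9-fold, the widest rise among the tested members, and the log2 difference was 1.93 ± 0.26 (SE; limma adjusted p = 0.00569), or 1.76 after rescaling.

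Cyp4v3, the mouse counterpart of the human fatty acid hydroxylase CYP4V2, is also on chromosome 8 (45269671 to 45333216, minus strand). It had 10.8, 6.74 and 5.39 FPKM in adenine 1 to 3, against 2.86, 2.80 and 2.32 FPKM in standard 1 to 3. The standard libraries were close together and all below the adenine libraries. The fold was 2.87, the log2 difference 1.19 ± 0.24 (SE; limma adjusted p = 0.0130), and 0.95 after rescaling. Of the 100-base stretches of its transcript, 5.77% also occur in Gm45753, whose reads cannot be told apart there.

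Cyp4f16 and Cyp4f13 lie 373 kb apart in a cluster of 8 Cyp4f genes on chromosome 17 and moved in opposite directions. Cyp4f16 (32536558 to 32551798, plus strand) had 13.6, 12.3 and 6.85 FPKM in adenine 1 to 3, against 5.54, 5.73 and 3.90 FPKM in standard 1 to 3. The lowest adenine library, adenine 3, was only just above the highest standard library. The log2 difference was 0.94 ± 0.26 (SE; limma adjusted p = 0.0341), and 0.68 after rescaling, where the call was lost (limma adjusted p = 0.0597). It was also lost with quantile normalization (0.0946), without the filter on low values (0.0582), and without adenine 1, adenine 2 or any standard library (0.0727 to 0.114, all limma adjusted p). Cyp4f37, which shares 9.71% of the 100-base stretches of Cyp4f16, did not exceed 0.0541 FPKM in any library.

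Cyp4f13 (32924688 to 32947402, minus strand) had 14.4, 14.4 and 14.3 FPKM in adenine 1 to 3, against 20.3, 23.6 and 24.2 FPKM in standard 1 to 3. The adenine libraries were almost equal for this gene, although they differed widely for most abundant members. Its mean was 1.58-fold higher on the standard diet, and the log2 difference was -0.62 ± 0.095 (SE; limma adjusted p = 0.00755), or -0.91 after rescaling. Its neighbour Cyp4f14, 7.34 kb away, averaged 0.325 ± 0.146 FPKM on the adenine-enriched diet and 0.766 ± 0.363 FPKM on the standard diet (SD, n = 3 each). It was close to the level required for testing and was not called (limma adjusted p = 0.141), but was with quantile normalization (-0.80, limma adjusted p = 0.0432). The remaining tested genes of the cluster, Cyp4f15 and Cyp4f17, overlapped between the diets.

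Markers of several cell types rose beside these genes. Of all tested genes 29.7% rose and 6.84% fell, or 16.8% and 15.2% after rescaling. The 5 leukocyte markers in the table summed to 155 to 320 FPKM in the adenine libraries and 44.6 to 49.9 FPKM in the standard libraries, and 4 of the 5 rose (3 after rescaling). The 4 fibroblast markers summed to 487 to 935 FPKM in the adenine libraries and 69.1 to 92.1 FPKM in the standard libraries, and 4 of 4 rose. The 5 injured tubule markers summed to 334 to 787 FPKM in the adenine libraries and 10.2 to 14.5 FPKM in the standard libraries, and 5 of 5 rose. No marker of these lists was at 0 in all libraries. Adenine 1 was the highest and adenine 3 the lowest adenine library in 5 of the 6 risen P450 genes, an order that 43.7% of all tested genes share. The 4 thick ascending limb markers summed to 3395 to 4369 FPKM in the adenine libraries and 3601 to 3932 FPKM in the standard libraries; Cldn16 rose and Slc12a1 and Egf fell (0 and 2 after rescaling). The 6 distal tubule and collecting duct markers summed to 319 to 383 FPKM in the adenine libraries and 356 to 485 FPKM in the standard libraries, and Atp6v1g3 and Slc4a1 fell (3 fell after rescaling). The 5 endothelial markers summed to 221 to 240.3 FPKM in the adenine libraries and 183 to 255 FPKM in the standard libraries; none was called, 2 had an unadjusted limma p under 0.05 (Kdr 0.0221, Cdh5 0.0317), and 2 fell after rescaling. The part of these cells in the rise of any P450 gene was not tested.

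Most P450 transcript in these kidneys came from a few genes, of which Cyp2j5 fell. The summed level was below every standard library in adenine 1 and adenine 2. All 80 members summed to 1762, 2654 and 4210 FPKM in adenine 1 to 3, against 4174, 4588 and 4707 FPKM in standard 1 to 3. The 10 most abundant genes held 88.1% to 95.8% of that sum in the adenine libraries and 94.95% to 95.61% in the standard libraries. Cyp4b1, Cyp2j5 and Cyp2e1 alone held 62.1% to 71.7% in the adenine libraries and 69.3% to 72.9% in the standard libraries. In adenine 3 the sum was within the range of the standard libraries, and in adenine 1 it was less than any of them by a wide margin.

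Cyp2j5, an arachidonic acid epoxygenase of the proximal tubule (chromosome 4, 96628773 to 96664154, minus strand), was the only one of the 10 that was called. It had 279, 394 and 548 FPKM in adenine 1 to 3, against 673, 700.5 and 861 FPKM in standard 1 to 3. The groups did not overlap, and adenine 3 was nearest to the standard libraries. Its log2 difference was -0.92 ± 0.26 (SE; limma adjusted p = 0.0365), and -1.22 after rescaling (limma adjusted p = 0.0302). The call was lost with quantile normalization (0.0861), without the filter on low values (0.0652), and without adenine 1, adenine 2 or any standard library (0.0660 to 0.114, all limma adjusted p). Of the other Cyp2j genes, Cyp2j11 had 57.9, 80.4 and 124 FPKM in adenine 1 to 3, against 133, 145 and 159.7 FPKM in standard 1 to 3 (log2 difference -0.80, limma adjusted p = 0.0543). It did not overlap, and rescaling made it a call (limma adjusted p = 0.0387). Cyp2j13 had 50.9, 85.4 and 139 FPKM in adenine 1 to 3, against 116, 138 and 142 FPKM in standard 1 to 3. Its adenine 3 value lay among the standard values, and the gene was not called (limma adjusted p = 0.180). Cyp2j6, 75.1 kb from Cyp2j5, averaged 16.1 ± 1.80 FPKM on the adenine-enriched diet and 16.31 ± 0.59998 FPKM on the standard diet (SD, n = 3 each). Its 95% interval ran from -0.27 to 0.23 log2 units around a difference of -0.02, whose sign turned without adenine 1 (0.05) or standard 2 (0.01). After rescaling the difference was -0.30 (limma adjusted p = 0.115).

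Cyp4b1, which oxidises fatty acids and small plant toxins, was the most abundant member in every library. It had 585, 1065 and 1818 FPKM in adenine 1 to 3, against 1691, 1935 and 1785 FPKM in standard 1 to 3. Adenine 3 lay within the standard range while adenine 1 was far below it. The log2 difference of -0.79 had a 95% interval of -1.78 to 0.20 (limma adjusted p = 0.171), and without adenine 3 it was -1.19 (limma adjusted p = 0.0241). Cyp2e1, which oxidises ethanol and small solvents and is androgen-induced in the mouse kidney, had 230.2, 389.8 and 653 FPKM in adenine 1 to 3, against 619, 710.3 and 615 FPKM in standard 1 to 3. Adenine 3 was again within the standard range. The log2 difference was -0.73 (limma adjusted p = 0.148), and -1.11 without adenine 3 (limma adjusted p = 0.0177).

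Cyp2a4 and Cyp2a5, a steroid hydroxylase and a coumarin hydroxylase, encode proteins that are 97.6% identical. Cyp2a4 had 102, 187 and 323 FPKM in adenine 1 to 3, against 349, 299.7 and 411 FPKM in standard 1 to 3. Cyp2a5 had 27.3, 48.0 and 55.0 FPKM in adenine 1 to 3, against 27.2, 36.8 and 40.4 FPKM in standard 1 to 3. The 2 genes overlapped between the diets and neither was called (limma adjusted p = 0.106 for Cyp2a4 and 0.453 for Cyp2a5). The log2 difference was -0.93 for Cyp2a4, and without adenine 3 that gene was called (-1.33, limma adjusted p = 0.0164). For Cyp2a5 it was 0.27, and -0.019 after rescaling. Since 11.2% of the 100-base stretches of Cyp2a4 and 9.56% of those of Cyp2a5 occur in the other (14.4% of those of Cyp2a5 in any gene), how reads were split bears on both, and their summed FPKM was not called either (-0.77, limma adjusted p = 0.143). The stretch of their coding sequences with the most differences (bases 570 to 669 of 1482, GENCODE M21, with 5 differing bases in capitals) is shown.
Cyp2a4: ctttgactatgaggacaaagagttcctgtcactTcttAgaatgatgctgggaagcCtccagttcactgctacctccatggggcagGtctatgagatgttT
Cyp2a5: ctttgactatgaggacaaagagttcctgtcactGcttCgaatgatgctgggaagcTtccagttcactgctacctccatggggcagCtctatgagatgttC

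The library order of the abundant P450 genes was also that of the proximal tubule markers. Adenine 1 was the lowest and adenine 3 the highest adenine library in 9 of the 10 most abundant members, in 14 of the 31 tested members (45.2%) and in 11 of 12 proximal tubule markers, against 17.3% of all tested genes. Relative to the standard mean, the median of the 10 members was 0.392, 0.570 and 0.961 in adenine 1 to 3, against 0.908, 1.02 and 1.12 in standard 1 to 3. The median of the markers was 0.360, 0.537 and 0.735 in adenine 1 to 3, against 0.851, 1.01 and 1.12 in standard 1 to 3. The 12 markers summed to 2861 to 6646 FPKM in the adenine libraries and 7673 to 9336 FPKM in the standard libraries, and none was at 0. Of the 12, 7 fell (9 after rescaling), against 6.84% of all tested genes (15.2% after rescaling). The part of the marked cells in the lower P450 levels was not tested.

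**Figure D3:**
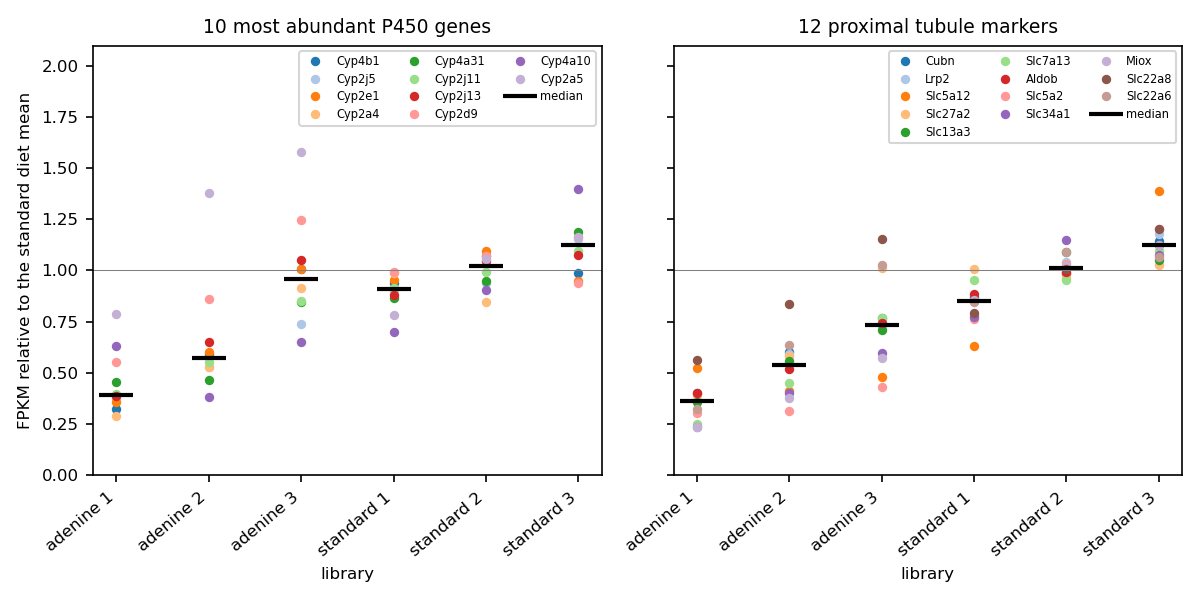
FPKM of the 10 most abundant P450 genes (left) and of 12 proximal tubule markers (right) in each library, divided by the gene's standard diet mean, with 1 point per gene and black bars at the median. Medians of the P450 genes stand at 0.392, 0.570 and 0.961 in adenine 1 to 3, and at 0.908, 1.02 and 1.12 in standard 1 to 3, and the markers show the same order of libraries.

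The Cyp4a genes encode fatty acid hydroxylases, some of which make the vasoactive eicosanoid 20-HETE in rodents. They had 5 tested members, of which Cyp4a12a fell and the others were not called. Cyp4a12a, the main arachidonic acid hydroxylase of the male mouse kidney (chromosome 4, 115299046 to 115332815, plus strand), had 2.30, 11.97 and 13.28 FPKM in adenine 1 to 3, against 73.2, 53.6 and 25.2 FPKM in standard 1 to 3. All adenine values were lower, adenine 1 by far, and the standard libraries themselves were far apart, with standard 3 nearest to the adenine values. The log2 difference was -2.48 ± 0.64 (SE; limma adjusted p = 0.0274), and -2.74 after rescaling. The call was lost with a robust variance prior (0.0501) and without adenine 2 (0.0584), standard 1 (0.0877) or standard 2 (0.0839, all limma adjusted p).

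Cyp4a14, named after its values were seen, had 27.6, 3.53 and 5.08 FPKM in adenine 1 to 3, against 1.39, 3.79 and 16.4 FPKM in standard 1 to 3. A single library of each diet, adenine 1 and standard 3, was far above the rest, and the groups overlapped. The log2 difference of 0.66 had a 95% interval of -1.55 to 2.87 (limma adjusted p = 0.585), and without adenine 1 its sign turned (-0.16, limma adjusted p = 0.902). In the standard libraries Cyp4a14 was highest in standard 3, where Cyp4a12a was lowest, and lowest in standard 1, where Cyp4a12a was highest.

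Cyp4a10 had 69.9, 42.2 and 71.7 FPKM in adenine 1 to 3, against 77.4, 100.0 and 154 FPKM in standard 1 to 3. Cyp4a31 had 86.4, 88.3 and 161 FPKM in adenine 1 to 3, against 164, 180.3 and 226 FPKM in standard 1 to 3. Both were lower in every adenine library, by narrow margins, and standard 3 was the highest library for each. Neither was called (log2 difference -0.82 and limma adjusted p = 0.0730 for Cyp4a10, -0.81 and 0.0516 for Cyp4a31), and both were after rescaling (limma adjusted p = 0.0430 for Cyp4a10 and 0.0369 for Cyp4a31). Their proteins are 94.5% identical, and summed with Cyp4a32 they fell by 0.81 on the log2 scale (limma adjusted p = 0.0491).

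Cyp4a12b encodes a protein 97.8% identical to that of Cyp4a12a and lies 78.8 kb from it, yet stood far lower, at 0.675, 1.86 and 1.51 FPKM in adenine 1 to 3, against 0.915, 1.53 and 2.66 FPKM in standard 1 to 3. It overlapped between the diets and was not called (log2 difference -0.19, limma adjusted p = 0.638). Its sign turned without adenine 1 (0.04) or standard 3 (0.059). About 36% of the 100-base stretches of each transcript (35.8% for Cyp4a12a, 36.2% for Cyp4a12b) occur in the other, and as a sum the pair fell by 2.34 on the log2 scale (limma adjusted p = 0.0270). The coding sequences differ at 23 of 1524 bases. The stretch with the most differences (bases 664 to 763, GENCODE M21, 8 differing bases in capitals) is shown, as reads from such places are what separates the copies.
Cyp4a12a: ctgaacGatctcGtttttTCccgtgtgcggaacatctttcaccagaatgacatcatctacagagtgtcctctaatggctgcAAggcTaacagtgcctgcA
Cyp4a12b: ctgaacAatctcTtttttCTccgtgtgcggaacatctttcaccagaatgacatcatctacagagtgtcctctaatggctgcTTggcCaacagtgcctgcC

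**Figure D4:**
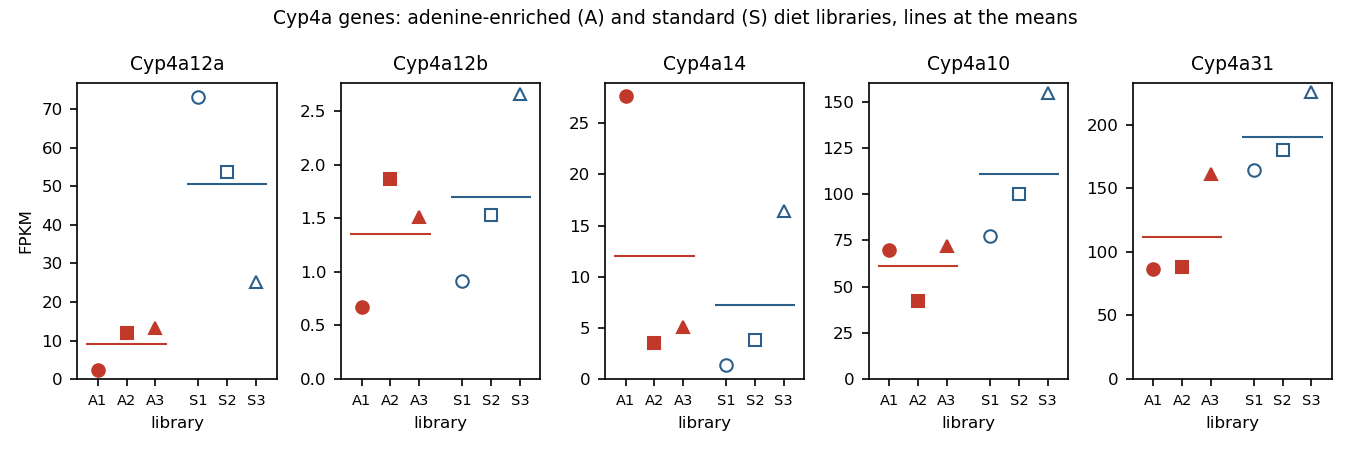
FPKM of 5 Cyp4a genes in adenine (A, filled red) and standard (S, open blue) libraries, each panel with its own axis from 0 and lines at the group means. Cyp4a12a runs from 2.30 to 13.3 FPKM in the adenine libraries and from 25.2 to 73.2 FPKM in the standard libraries, while Cyp4a14 is carried by adenine 1 at 27.6 FPKM and standard 3 at 16.4 FPKM.

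The Cyp2d genes of chromosome 15 were split as well. Cyp2d12 (82555108 to 82559413, plus strand), for which no role is given here, had 0.451, 2.15 and 2.49 FPKM in adenine 1 to 3, against 13.3, 22.1 and 19.4 FPKM in standard 1 to 3. Every adenine library was several times below every standard library. The log2 difference was -2.91 with a 95% interval of -3.78 to -2.03, and -3.12 after rescaling. The limma adjusted p of Cyp2d12 was 0.00336 to 0.0295 over 16 alternatives. Cyp2d9, a steroid hydroxylase of male mice that lies 98.3 kb away, had 63.5, 98.3 and 143 FPKM in adenine 1 to 3, against 114, 122 and 107 FPKM in standard 1 to 3. Its adenine values fell on either side of the standard values, with a 95% interval of -0.90 to 0.41 around a log2 difference of -0.25 (limma adjusted p = 0.490) that turned to 0.0495 without adenine 1. After rescaling the difference of Cyp2d9 was -0.54 (limma adjusted p = 0.219). Whether the 2 genes' differences differ was not tested. Of their 1512 coding bases 119 differ, and 3.79% of the 100-base stretches of Cyp2d12 occur in another gene, so most of its reads can be told apart. The coding stretch with the most differences (bases 333 to 432, GENCODE M21, 17 differing bases in capitals) is shown. At the other end, 59 of the 1413 coding stretches of 100 bases are identical in both genes.
Cyp2d12: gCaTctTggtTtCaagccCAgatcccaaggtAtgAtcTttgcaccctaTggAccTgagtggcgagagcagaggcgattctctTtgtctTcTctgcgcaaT
Cyp2d9: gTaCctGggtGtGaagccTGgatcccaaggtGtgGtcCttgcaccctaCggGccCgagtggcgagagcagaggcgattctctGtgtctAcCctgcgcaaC

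The called genes of a cluster did not all lie on one side, though few genes of each cluster were tested. Taking genes up to 500 kb apart as a cluster, the Cyp2d cluster held 1 risen gene, Cyp2d22, and 1 fallen gene, Cyp2d12, among 4 tested, and the Cyp4f cluster 1 of each among 5 tested. The Cyp2j cluster (8 genes, 6 tested) and the Cyp4a and Cyp4b cluster (10 genes, 6 tested) each held 1 fallen gene. Of all tested genes 29.7% rose and 6.84% fell. Both risen genes lost their call in an alternative, Cyp4f16 after rescaling (limma adjusted p = 0.0597) and Cyp2d22 with quantile normalization (limma adjusted p = 0.0522). The 14 clustered Cyp2c genes of chromosome 19 and the 8 clustered Cyp3a genes of chromosome 5 were all below the level tested.

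**Figure D5:**
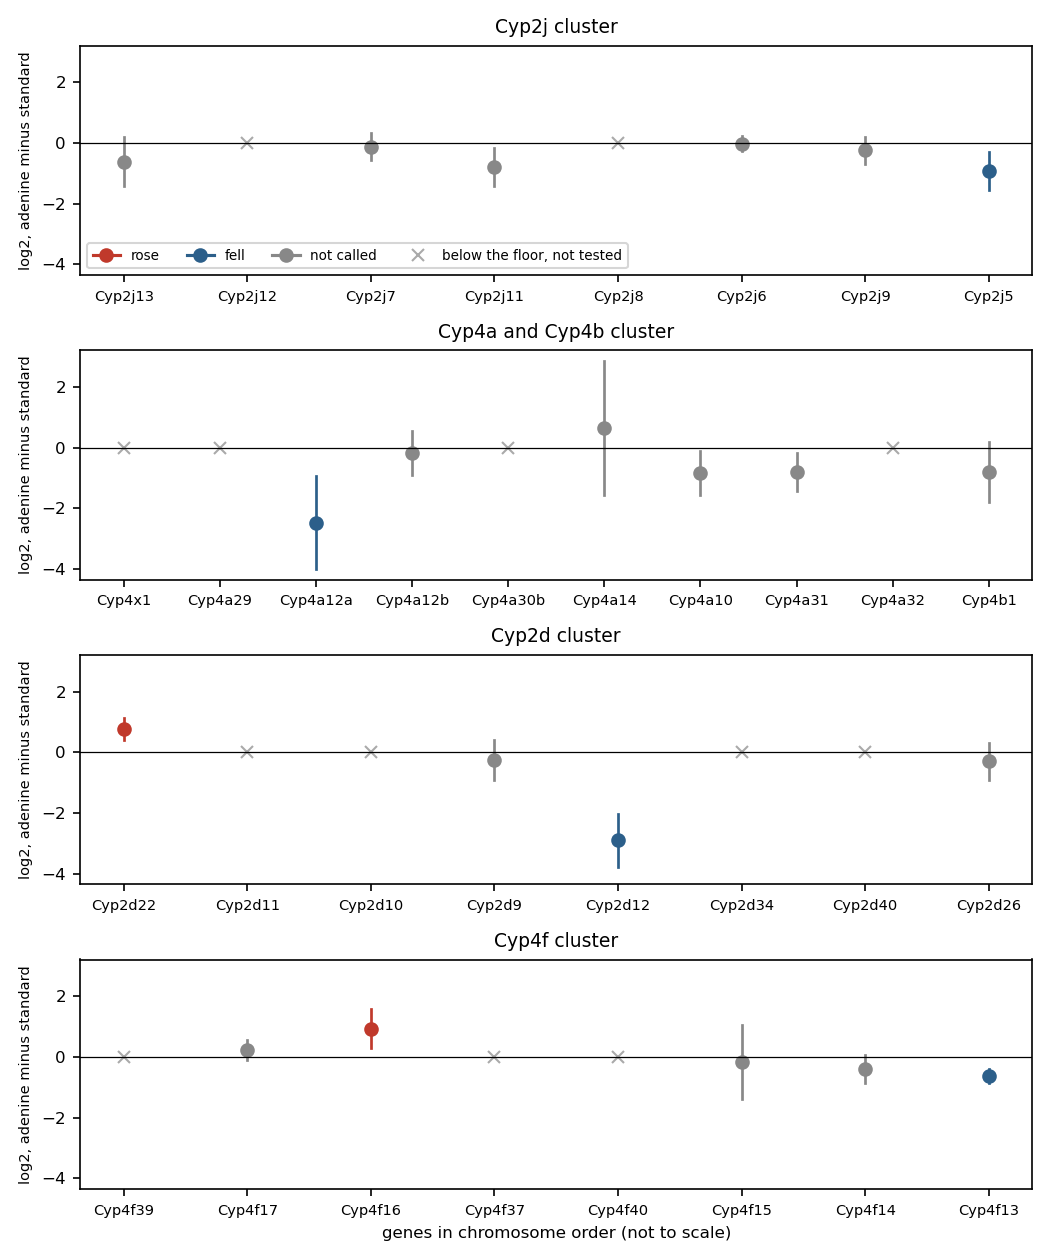
Difference in log2(FPKM + 1), adenine-enriched minus standard diet, with 95% intervals from limma, for the genes of 4 clusters in chromosome order, with red for genes that rose, blue for those that fell, grey for those not called and a cross at 0 for genes below the level tested. The Cyp2d and Cyp4f clusters each hold 1 called gene on either side of 0.

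The other tested members stayed within the spread of the libraries. Cyp2c44, an epoxygenase of the mouse collecting duct, averaged 11.04 ± 2.37 FPKM on the adenine-enriched diet and 12.03 ± 1.36 FPKM on the standard diet (SD, n = 3 each; limma adjusted p = 0.561). Cyp2r1, which starts the activation of vitamin D, averaged 1.10 ± 0.0895 FPKM on the adenine-enriched diet and 1.06 ± 0.251 FPKM on the standard diet (limma adjusted p = 0.876). Cyp2u1, a hydroxylase of long-chain fatty acids, averaged 0.888 ± 0.108 FPKM on the adenine-enriched diet and 0.979 ± 0.290 FPKM on the standard diet (limma adjusted p = 0.776). The sign of these small differences turned for Cyp2r1 after rescaling (-0.12), for Cyp2c44 without adenine 1 (0.02) and for Cyp2u1 without standard 2 (0.06). After rescaling the log2 difference of Cyp2c44 was -0.40 (limma adjusted p = 0.173). With quantile normalization Cyp2r1 was lower in the adenine group and called (-0.40, limma adjusted p = 0.0462). Cyp2d26 averaged 25.1 ± 3.25 FPKM on the adenine-enriched diet and 32.2 ± 11.3 FPKM on the standard diet, and Cyp2j9 3.62 ± 0.336 FPKM on the adenine-enriched diet and 4.56 ± 1.15 FPKM on the standard diet (limma adjusted p = 0.379 for Cyp2d26 and 0.317 for Cyp2j9). Cyp2j9, too, was called with quantile normalization (-0.74, limma adjusted p = 0.0203), and its rescaled log2 difference was -0.48 (limma adjusted p = 0.0626).

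Of the 49 members below the level tested, 20 were listed at 0 in all 6 libraries and 4 reached 0.5 FPKM in a library. Just above the limit, Cyp2j7 averaged 0.551 FPKM and Cyp4f14 0.546 FPKM over the 6 libraries, and just below it Cyp2f2 averaged 0.475 FPKM and Cyp3a13 0.429 FPKM. Cyp3a13 had 0.666, 0.787 and 0.542 FPKM in adenine 1 to 3, against 0.160, 0.307 and 0.110 FPKM in standard 1 to 3. Those listed at 0 throughout include genes known from the liver, such as Cyp1a2, Cyp2c29, Cyp2c37, Cyp2c50, Cyp3a25 and Cyp3a41a. The 8 hepatocyte markers summed to 155 to 347 FPKM in the adenine libraries and 182 to 246 FPKM in the standard libraries, most of it Ttr and Apob. Tat did not exceed 0.0394 FPKM and Apoa1 did not exceed 0.341 FPKM in any library. Alb lay between 2.67 and 3.63 FPKM in the adenine libraries and between 3.52 and 5.86 FPKM in the standard libraries. Of the 6 tested markers Fgb and Serpina1a rose and Apoa2 fell (2 rose and 2 fell after rescaling). Among all tested genes 29.7% rose and 6.84% fell (16.8% and 15.2% after rescaling).

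Genes that work with P450 enzymes were read from 7 lists of 96 genes, 80 of them tested. Of these 80, 15 rose and 10 fell, against 29.7% and 6.84% of all genes. After rescaling 6 of the 80 rose and 23 fell, against 16.8% and 15.2% of all genes. The same shares of all genes stand beside the counts of each list below. Single calls were fragile. The count of changed partner genes was 11, 6 and 31 without adenine 1, 2 and 3, and 11, 10 and 9 without standard 1, 2 and 3. Over all genes it also moved, from 5637 to 3635, 2053 and 7078 without adenine 1, 2 and 3. Without standard 1, 2 and 3 the count over all genes was 2794, 2866 and 2752. Of the 25 partner calls, 21 were lost without at least 1 of these libraries. The other 4 were Cyp27b1, Tbxas1, Ptgis and Plin2, and the last of these was not called after rescaling (limma adjusted p = 0.0806).

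Of 10 electron partners, 1 rose and 4 fell (0 and 4 after rescaling). Cyb5a, cytochrome b5, had 354, 435 and 646 FPKM in adenine 1 to 3, against 959, 929 and 990.5 FPKM in standard 1 to 3 (limma adjusted p = 0.0186), and Fdx1, the ferredoxin of mitochondrial P450 enzymes, had 14.2, 16.6 and 22.2 FPKM in adenine 1 to 3, against 36.3, 30.0 and 31.9 FPKM in standard 1 to 3 (limma adjusted p = 0.0126). All adenine values of both were below all standard values. The call of Fdx1 was lost without adenine 2 (limma adjusted p = 0.0535), and that of Cyb5a without adenine 2 or any standard library (0.0602 to 0.0771). Pgrmc1 and Cyb5b also fell (log2 difference -0.28 for Pgrmc1 and -0.32 for Cyb5b) and Cyb5r3 rose (0.34, and 0.04 after rescaling). With the replicate block Pgrmc1 was not called (limma adjusted p = 0.0555), and each of the 3 lost its call without adenine 1, adenine 2, standard 1 or standard 3. Por, the reductase that serves the microsomal enzymes, averaged 94.2 ± 32.9 FPKM on the adenine-enriched diet and 132 ± 15.3 FPKM on the standard diet (SD, n = 3 each) and was not called (limma adjusted p = 0.126). None of 12 genes of haem synthesis and breakdown passed the test, and none had an unadjusted p under 0.05. Ppox had the smallest (limma, unadjusted p = 0.0637, adjusted p = 0.120). After rescaling 5 of the 12 fell.

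Of 19 tested regulators, 4 rose (Ahr, Prlr, Cebpa and Cebpb) and 2 fell (Ghr and Nr1h4), with 2 and 5 after rescaling. Ahr, the aryl hydrocarbon receptor, had 9.88, 9.73 and 5.80 FPKM in adenine 1 to 3, against 3.78, 3.90 and 3.19 FPKM in standard 1 to 3 (log2 difference 1.00, limma adjusted p = 0.0148). The groups did not overlap, but the call was lost without adenine 2 (0.0618) or standard 3 (0.0539, limma adjusted p). Its target genes outside the P450 families gave 1 rise among 5, Ugt1a6a (limma adjusted p = 0.0438, and 0.178 after rescaling), which was lost without adenine 2 or any standard library. Ghr, the growth hormone receptor, had 159.7, 249 and 381 FPKM in adenine 1 to 3, against 453, 503 and 467 FPKM in standard 1 to 3 (limma adjusted p = 0.0498). The groups did not overlap, and the call was lost without adenine 1, adenine 2 or any standard library (0.0754 to 0.130). Prlr, the prolactin receptor, had 29.9, 20.9 and 33.1 FPKM in adenine 1 to 3, against 4.46, 7.26 and 18.1 FPKM in standard 1 to 3 (limma adjusted p = 0.0354, and 0.0802 after rescaling). Its lowest adenine library, adenine 2, was just above standard 3, and the call was lost without any library other than standard 3 (0.0721 to 0.103). Ppara itself averaged 10.4 ± 1.13 FPKM on the adenine-enriched diet and 18.5 ± 6.19 FPKM on the standard diet (limma adjusted p = 0.0533), and was called with the replicate block (0.0451). Of 13 tested PPAR-alpha targets outside the P450 families, Angptl4 and Plin2 rose and Ehhadh and Vnn1 fell (1 and 5 after rescaling). The calls of Ehhadh and Vnn1 were lost without adenine 1, adenine 2, standard 2 or standard 3, and that of Angptl4 without standard 1 or standard 2. Cebpa, Cebpb and Nr1h4 lost theirs without adenine 2 or standard 3, among other libraries.

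Of 11 genes of epoxide and eicosanoid handling, Pla2g4a, Ptgs1 and Lta4h rose and Fabp3 fell (0 and 2 after rescaling). Pla2g4a, the phospholipase that frees arachidonic acid, averaged 18.8 ± 4.71 FPKM on the adenine-enriched diet and 10.2 ± 2.58 FPKM on the standard diet (SD, n = 3 each; limma adjusted p = 0.0407, and 0.0858 after rescaling). Its call and that of Lta4h were lost without adenine 1, adenine 2 or any standard library, that of Ptgs1 without adenine 1, adenine 2, standard 1 or standard 3, and that of Fabp3 without standard 3 (limma adjusted p = 0.0535). Ephx2, which hydrolyses the epoxides made by Cyp2c and Cyp2j enzymes, averaged 157 ± 72.6 FPKM on the adenine-enriched diet and 224 ± 8.31 FPKM on the standard diet and was not called (limma adjusted p = 0.154). Its adenine values, 97.5, 136 and 238 FPKM, had the library order of the abundant P450 genes.

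Of 11 tested P450 genes of other families, 4 rose and 1 fell (3 and 1 after rescaling), and Cyp27b1, Tbxas1 and Ptgis kept their calls in every alternative run. Cyp27b1, which makes active vitamin D in the proximal tubule, had 2.82, 4.61 and 2.24 FPKM in adenine 1 to 3, against 0.0239, 0.241 and 0.415 FPKM in standard 1 to 3 (log2 difference 1.76, limma adjusted p = 0.00628). Every standard value of Cyp27b1 lay below the mean level required for testing, so only the adenine libraries brought it into the test. Its standard 1 value was below the 0.0819 FPKM of 3 fragments of a 2 kb transcript in that library, and so rests on very few fragments. Tbxas1, thromboxane synthase, had 11.1, 9.01 and 7.87 FPKM in adenine 1 to 3, against 4.24, 4.83 and 4.82 FPKM in standard 1 to 3 (log2 difference 0.87, limma adjusted p = 0.00889). The groups overlapped for neither gene. Ptgis, prostacyclin synthase, averaged 6.06 ± 0.795 FPKM on the adenine-enriched diet and 2.997 ± 0.441 FPKM on the standard diet (limma adjusted p = 0.0104). Cyp27a1 also rose, and Cyp51, of cholesterol synthesis, fell (limma adjusted p = 0.0442 for Cyp27a1 and 0.0455 for Cyp51). The call of Cyp27a1 was lost without any single library (0.0603 to 0.118) and with the replicate block (0.0540) and that of Cyp51 without any but adenine 3 (0.0820 to 0.128). After rescaling the log2 difference of Cyp27a1 was 0.02.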

How the data were processed

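RNA of 6 whole kidney samples was sequenced as paired reads of 100 bases, per the labels' protocols. The authors deposited FPKM per gene. Tools named by the submitters' processing notes are Cufflinks 2.1.1, TopHat and bcl2fastq 2.0, and the builds are mm10 and GRCm38. The TopHat version is not given in the sources used here, nor are the gene annotation and any use of strand. A second table, with 6 value columns, was not used.

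For genes averaging at least 0.5 FPKM, log2(FPKM + 1) was modelled on diet in limma 3.58.1 (R 4.3.3, two-sided, variance prior following mean level), with Benjamini-Hochberg adjustment over all 15431 genes and a threshold of 0.05. This scale understates changes of low genes, and folds are ratios of mean FPKM. FPKM steps gave whole fragments, within 0.15, for 65.4% to 73.4% of low values, so no count test was run. The code was tested on simulated data. Alternatives were other pseudocounts, filters, scalings and variance priors, a replicate block, leaving out each library, and near-identical copies summed, the last chosen after seeing the data.

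Members and lists were chosen with earlier results of these data known. Named were all called members, the 10 most abundant, pairs with at least 90% protein identity, and up to 2 rises and 2 falls per partner list; other names were chosen after their values were seen. Shared 100-base stretches and identity were computed from GENCODE M21 transcripts with Biopython 1.88, and promoters were taken from RefSeq (GRCm38.p6). Deviations from group means correlated at 0.257, 0.143 and 0.181 between same-numbered samples, so the numbers may pair the samples, on the data alone; the calls given come from the model without a replicate block, and blocked values are given where they change a call.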

Additional observations from a re-analysis of the deposited data

How the results depend on the processing

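Of the comparisons with an alternative of the 20 P450 genes that were called, among the 10 most abundant or near-identical to another, 276 kept direction and side of the threshold, 20 gained a call, 20 lost one and 5 changed sign. Among the other 11 tested members there were 14 changes of sign and 3 gained calls. Median-of-ratios rescaling gave 2598 rises and 2344 falls over all genes, and 7 fallen members, with 6 rises and 23 falls among partner genes. Quantile normalization gave 2140 rises and 2237 falls over all genes and 7 rises among partner genes. Without the filter 15 partner genes changed, 9 that rose and 6 that fell. The replicate block together with rescaling gave 2673 rises and 2589 falls over all genes, 9 fallen members, and 39 changed partner genes (8 rises, 31 falls). The replicate block alone gave 4825 rises and 1132 falls over all genes, 6 fallen members and 12 falls among partner genes. Among partner genes it lost the calls of Pgrmc1 and Cyp27a1 and added Arnt, Cyp26b1, Hnf4a and Ppara, and it changed no other call among members and partner genes than these and Cyp2j11 and Cyp4a31.

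Leaving out each library in turn gave 2053 to 7078 changed genes (1833 to 5480 rises, 220 to 1598 falls), each lowest without adenine 2 and highest without adenine 3. Among members 7 to 16 changed and 2 to 10 fell, and among partner genes 6 to 31 changed (5 to 15 rises, 1 to 16 falls). The log2 difference of Cyp2a5 turned to -0.019 with rescaling, with or without the replicate block. That of Cyp2d9 ran from -0.53 without adenine 3 to 0.0495 without adenine 1, and that of Cyp4a12b from -0.41 without standard 1 to 0.059 without standard 3. For all of these the cause was not tested. FPKM without counts leaves precision at low levels unknown, and 3 samples a group cannot reach an exact permutation p under 0.1 for a single gene.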
